A study of Mus musculus with 108 samples.

Results

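Cxcl13 is the gene described here, 1 of the 49585 genes counted in 28 groups of libraries of sorted mouse myeloid cells. It was chosen by its level in CPM, which is near 0 in microglia of tumour-free brains and high in microglia of brains with metastases, so that contrast is given as a description and without a test. The gene (ENSMUSG00000023078) lies on chromosome 5 at 95956951 to 95961068 on the plus strand of GRCm38. GENCODE M21 gives it 1 transcript of 4 exons, 1150 bases long in all. No other annotated gene overlaps it and the nearest, Gm7993, is 13172 bases away, so no annotated neighbour shares its bases.

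CXCL13 is a secreted chemokine, first known as the B lymphocyte chemoattractant. It acts on CXCR5, a receptor of B cells and follicular helper T cells, and draws these cells into the follicles of lymph nodes and spleen. There it is made mainly by follicular stromal cells, which switch it on after lymphotoxin and tumour necrosis factor signals. The lymphotoxin signal runs through the non-canonical NF-kB pathway. The kinase of that pathway is NIK (Map3k14), and its transcription factors are RelB with p52 (Nfkb2). Macrophages and dendritic cells can make CXCL13 too, and it is a marker of ectopic lymphoid tissue in chronic inflammation.

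All mice were Balb/C athymic nude animals (CAnN.Cg-Foxn1nu/Crl), which lack a thymus and most T cells but have B cells. The series models brain metastasis of lung cancer, and the cells were purified by flow cytometry from whole brains or from blood. The groups without irradiation were microglia, bone marrow-derived macrophages (BMDM), inflammatory monocytes and granulocytes of tumours called small or large in the labels, with 5 and 5 libraries of microglia and of BMDM and 4 and 5 of monocytes and of granulocytes. Whole-brain radiotherapy was given to tumour-bearing mice as 5 fractions of 2 Gy (5x2 Gy), with 4 libraries of each population at D3, 4 at D5 and 3 at D10, or as 1 fraction of 10 Gy (1x10 Gy), with 3 libraries of each at D3. Irradiated tumours carry no stage. Tumour-free mice gave 4 libraries of microglia and 4 of blood monocytes. They also gave 3 and 3 libraries of microglia whose titles carry 5x2 with D3 or D5 although their radiotherapy field says none, called titled 5x2 here. Ages, the day from which D3, D5 and D10 are counted and whether the libraries of 1 group are from different animals are not given in the sources used. Each p-value therefore reflects the spread between samples, which may be technical.

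Libraries held 985423 to 18642747 counts, with a median of 11362593. By a rule on low totals, very many genes detected or abundant genes at 0 counts, 12 libraries were of doubtful quality, 5 of them microglia. These were tumour-free microglia 2 and 3, small-stage microglia 1 and 4, and 5x2 Gy D3 microglia 1. Levels are given in CPM, the count of a gene per 1000000 counts of its library. The microglial purinergic receptor P2ry12 was at 852.5 to 3603 CPM in the 24 microglia libraries of tumour-bearing brains, while Ccr2, the monocyte chemokine receptor, was at 4.53 to 222 CPM there.

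The 250 bases before the RefSeq start of Cxcl13 are shown because the pathway above is known to act through this promoter. They lie at chr5:95956689-95956938 on GRCm38.p6, plus strand, and capitals mark 2 motifs found by a search of both strands.
Cxcl13 promoter: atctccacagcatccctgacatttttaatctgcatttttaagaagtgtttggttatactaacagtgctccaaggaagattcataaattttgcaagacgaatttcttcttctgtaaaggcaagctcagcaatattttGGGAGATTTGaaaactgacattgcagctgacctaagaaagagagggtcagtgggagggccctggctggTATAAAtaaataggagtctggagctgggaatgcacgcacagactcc
The first is GGGAGATTTG, 114 to 105 bases before the start, a match to GGAGA and 3 T with any base before and after, the kind of kappaB site bound by RelB with p52. Of 32851 mouse promoter windows of this length, 0.959% held that motif. The motif was searched for because its pathway is known to act through this promoter. The share therefore does not measure how unexpected the match is. The second is a TATA box, TATAAA, 46 to 41 bases before the start, which 12.4% of windows held. A palindromic kappaB core, GGG and CC with any 5 bases between, was also matched at 63 to 54 bases before the start, and 45.8% of windows held one. A match is a stretch of letters, and no binding was measured here.

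In tumour-free microglia, Cxcl13 was low, from 0 to 14.7 CPM over the 10 libraries, and in some of them at or under the counting limit. The 4 untitled libraries gave 2.69, 0.194, 0 and 0.376 CPM, which are 16, 1, 0 and 7 counts. The library at 0 held 985423 counts, so that 3 counts, the limit that a count of 0 allows, would be 3.04 CPM. The titled 5x2 D3 libraries gave 0, 1.43 and 14.7 CPM and the titled 5x2 D5 libraries 4.203, 0.604 and 3.68 CPM. A single library, titled 5x2 D3 number 3, therefore stood above the rest of the 10 tumour-free microglia libraries, whose median was 1.01 CPM.

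In microglia of small-stage tumours the 5 libraries gave 1531, 41.0, 1300, 206 and 1516 CPM. They fell into 3 libraries above 1000 CPM and 2 far below, and their mean was 919 ± 734 CPM (SD, n = 5). In microglia of large-stage tumours the libraries gave 1627, 175, 135, 416 and 193 CPM, so that 1 library held 63.9% of the group's sum. Every library of both stages was above every tumour-free one. On the log2 scale of the fit, the small stage was 10.29 ± 2.06 (SE) and the large stage 9.51 ± 2.01 above untitled tumour-free microglia. With single libraries left out these differences ran from 9.79 to 11.76 and from 8.37 to 10.96, highest without tumour-free number 1 and lowest without tumour-free number 4 (small stage) or large-stage number 1.

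The 14 irradiated libraries together had a wider range than the 10 unirradiated ones, which ran from 41.0 to 1627 CPM, but not every irradiated group did. The highest library was 37.4 times the lowest at the small stage and 12.1 times at the large stage. After radiotherapy this ratio was 89.7 at 5x2 Gy D3, 16.5 at 1x10 Gy D3 and 4.06 at 5x2 Gy D10. A difference in spread was not tested. At 5x2 Gy D3 the 4 microglia libraries gave 116, 1330, 1042 and 14.8 CPM, and at 5x2 Gy D5 they gave 8.36, 13.2, 272 and 2116 CPM. At 1x10 Gy D3 they gave 184, 52.4 and 863 CPM, and at 5x2 Gy D10 they gave 265, 109 and 65.2 CPM. The highest and the lowest of all 24 tumour microglia libraries were thus in the same group, 5x2 Gy D5, where the highest was 253 times the lowest. Of the 24 libraries, 23 were over 10 CPM, 18 over 100 CPM and 7 over 1000 CPM, with a median of 200 CPM. Only the 2 lowest of 5x2 Gy D5 were under the highest tumour-free library. The 5x2 Gy D3 and D5 groups were 7.15 ± 1.95 and 8.08 ± 2.05 (log2, SE) above the tumour-free groups titled 5x2 of the same day. Without titled 5x2 D3 number 3 the first of these was 10.02, and without 5x2 Gy D5 number 4 the second was 5.38. In bulk libraries of this kind, more cells that make Cxcl13 and more RNA per cell cannot be told apart.

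Outside microglia, the other macrophages of the tumours came next. BMDM gave 84.4, 0.956, 13.01, 348 and 121 CPM at the small stage and 109, 90.7, 174, 43.5 and 102 CPM at the large stage. Irradiated BMDM ran from 0 to 761 CPM with a median of 22.9 CPM over 14 libraries. Granulocytes of the small stage gave 193, 10.98, 490 and 0 CPM, a group split between 2 high and 2 low libraries. The high library at 193 CPM, number 1, was of doubtful quality, with 1.77% of abundant genes at 0 counts. The 5 granulocyte libraries of the large stage lay between 1.80 and 20.8 CPM and the 14 irradiated ones between 0 and 32.5 CPM. Inflammatory monocytes gave 1.03 to 46.3 CPM over 9 unirradiated libraries and 0 to 6.27 CPM over 14 irradiated ones. Blood monocytes of tumour-free mice gave 8.63, 4.71, 0 and 0.158 CPM. The first 3 of these blood libraries were among those of doubtful quality.

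Ordered by the mean of log2(CPM + 1), the 28 groups began with microglia of the small and the large stage, 5x2 Gy D3, 1x10 Gy D3 and 5x2 Gy D10. BMDM of the large stage came between these and microglia of 5x2 Gy D5. Monocytes of 5x2 Gy D5, granulocytes of 1x10 Gy D3 and untitled tumour-free microglia stood at or near the end. In all 27 pairs of neighbouring groups the ranges of the libraries overlapped, so the order does not set neighbours apart from each other.

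**Figure D1:**
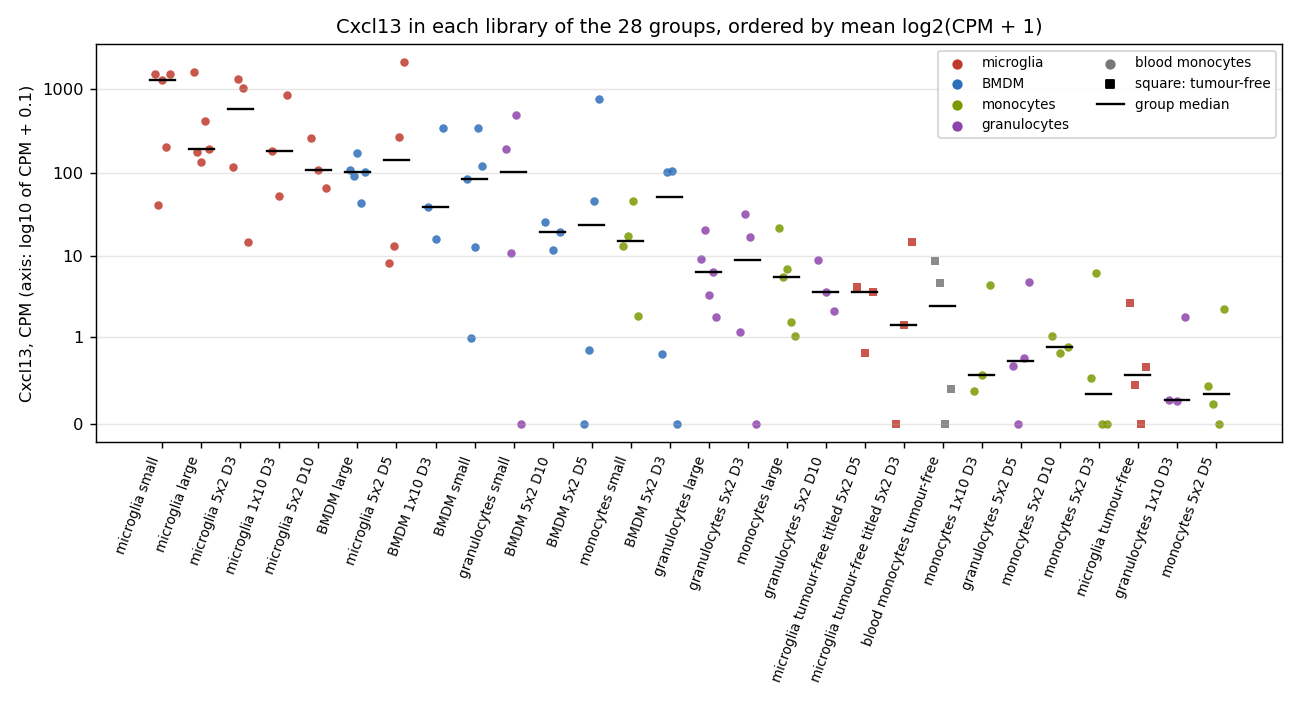
Cxcl13 in every library (points, squares for tumour-free mice) of the 28 groups, in CPM on an axis of log10(CPM + 0.1), with the group median as a line. Tumour microglia fill the left of the plot and spread from 8.36 to 2116 CPM, and neighbouring groups overlap.

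Whether Cxcl13 changed with stage or radiotherapy within tumour microglia was tested with edgeR's quasi-likelihood test, adjusted by Benjamini-Hochberg over 19754 genes. The high level of these libraries was part of the choice of the gene, but the contrasts among them were not. Of 9 tests within microglia none passed at an adjusted p of 0.05, and none had an unadjusted p under 0.05. DESeq2 gave 0 and 0 in the same tests and limma voom gave 0 and 1. Large-stage microglia were 0.78 ± 1.16 (log2, SE) lower than small-stage microglia (adjusted p = 0.925, 0% of all genes called in that comparison). Without large-stage library 1 the difference was -1.92. For irradiated microglia against the mean of both stages, the log2 differences were -0.06 ± 1.08 at 5x2 Gy D3 (adjusted p = 1.00, 0.0607% of genes called) and -0.84 ± 1.27 at 1x10 Gy D3 (adjusted p = 0.871, 0.101%). They were -0.14 ± 1.09 at 5x2 Gy D5 (adjusted p = 1, 0.0354%) and -2.24 ± 1.40 at 5x2 Gy D10 (adjusted p = 0.909, 0.00506%). The D5 value rests on 1 library, since without number 4 it was -2.83, and limma voom gave -3.84 (adjusted p = 0.128). The 1x10 Gy D3 value was -2.44 without number 3 and -0.27 without large-stage library 1, and the D10 value -1.67 without the latter.

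The radiotherapy groups were also set against each other. Microglia of 1x10 Gy D3 differed from those of 5x2 Gy D3 by -0.78 ± 1.42 (adjusted p = 0.928) and 5x2 Gy D10 from 5x2 Gy D3 by -2.18 ± 1.503 (adjusted p = 0.917), each with 0% of genes called. The first was -2.40 without 1x10 Gy D3 number 3 and -0.02 without 5x2 Gy D3 number 2, and the second -1.42 without the latter. The 3 microglia libraries of 5x2 Gy D10 lay within a 4.06-fold range, and all of them were inside the ranges of the small stage and of 5x2 Gy D3. Tumour-free microglia titled 5x2 were 2.69 ± 1.89 (D3, adjusted p = 0.376, 1.91% of genes called) and 1.69 ± 1.98 (D5, adjusted p = 0.659, 1.35%) above the untitled ones. Without titled D3 number 3 the first of these was -0.17. With standard errors above 1 on the log2 scale, differences of several fold between these groups were not detectable.

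The standard errors follow from the spread between libraries, which was wide for Cxcl13. Over the 24 tumour microglia libraries, the SD of log2(CPM + 1) within groups was 2.45 for Cxcl13. It ranked number 3 among 9146 genes of at least 10 CPM on average, and the median gene had an SD of 0.294. The 2 above it were the gene models CT010467.1 and Gm42047, and the next after it were Gbp2b, an interferon-induced GTPase, Fn1, which encodes fibronectin, and Ttr, the choroid plexus protein transthyretin. In BMDM the SD was 2.88, number 2 among 9201 genes with a median of 0.433, and the next named genes were Arg1, Ppfia4 and Lyve1. Within single groups of tumour microglia the SD of Cxcl13 was between 1.02 at 5x2 Gy D10 and 3.70 at 5x2 Gy D5. In BMDM groups it was between 0.55 at 5x2 Gy D10, above that of 91.9% of genes, and 4.48 at 5x2 Gy D5, and at the large stage it was 0.71, above that of 80.7%. The biological coefficient of variation that edgeR estimated for Cxcl13 in microglia was 1.23, against 0.306 for genes of its level. Over all 19754 genes tested, 81.8% had a lower one.

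**Figure D2:**
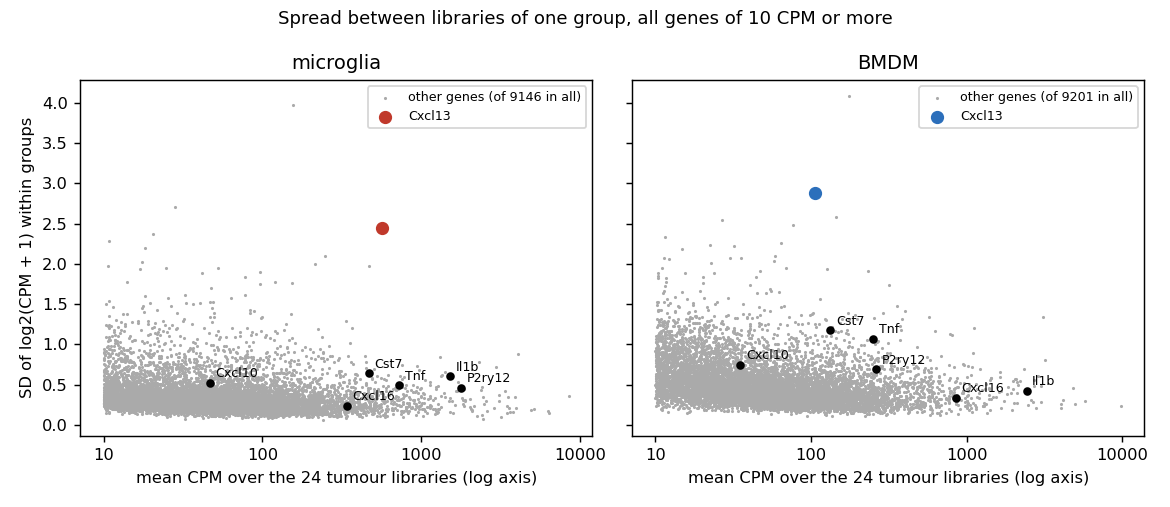
Each point is a gene of at least 10 CPM on average over the 24 tumour libraries of microglia (left, 9146 genes) or BMDM (right, 9201 genes), with its mean on a log axis and its SD of log2(CPM + 1) within groups. Cxcl13 lies at 2.45 and 2.88, far above the body of the genes, while Cxcl10, Cxcl16, Tnf, Cst7, Il1b and P2ry12 lie in or near it.

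Library depth and the label markers were set beside this spread. Over the 24 tumour microglia libraries, with group means removed, the Spearman correlation of Cxcl13 was 0.02 with the total counts, -0.05 with the number of genes detected, 0.05 with P2ry12 and -0.04 with Ccr2. Leaving out the 3 tumour microglia libraries of doubtful quality, the other 21 had the same lowest and highest values, 8.36 and 2116 CPM, and a median of 193 CPM. Xist and Ddx3y, transcripts that mark female and male cells, were each at 0 in at least 1 library and reached 1381 and 150 CPM in others. Their Spearman correlation with Cxcl13 was 0.06 and 0.23.

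Irradiated libraries of microglia, BMDM and granulocytes with the same condition and number in their titles varied together. At 5x2 Gy D5, number 4 was the highest in all 4 populations, with 2116 CPM in microglia, 761 CPM in BMDM, 2.25 CPM in monocytes and 4.88 CPM in granulocytes. Numbers 1, 2 and 3 of that condition gave 8.36, 13.2 and 272 CPM in microglia and 0, 0.656 and 46.5 CPM in BMDM. At 1x10 Gy D3, number 3 was the highest in both, with 863 and 348 CPM. In the 3 pairs whose microglia were under 20 CPM, BMDM were at 0.656 CPM or less. In the 14 irradiated pairs of microglia and BMDM, with group means removed, the Spearman correlation was 0.97, above that of 99.9% of 8530 genes, whose median was 0.358. Those genes were not matched to Cxcl13 for spread, so the share does not set it apart from genes that vary as widely.

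In the 10 unirradiated pairs the Spearman correlation was 0.20, beside a median gene at 0.08, and the difference between the irradiated and unirradiated pairs was not tested. In the unirradiated pairs the highest microglia and the highest BMDM library had different numbers at both stages. For granulocytes the Spearman correlation with microglia was 0.87 in 14 irradiated pairs and 0.60 in 9 unirradiated ones, beside median genes at 0.25 and 0.017. For monocytes it was 0.44 and 0.18, beside median genes at 0.36 and 0.10, and above 59.4% and 57.7% of genes. Cxcl13 was low in the irradiated libraries of both, with medians of 1.48 CPM in granulocytes and 0.266 CPM in monocytes and some libraries at 0. The other genes had at least 10 CPM on average in both populations compared. Cxcl13 did not reach this in irradiated granulocytes (mean 5.21 CPM) or monocytes (1.17 CPM). The labels do not say whether equal numbers mark the same animal. These correlations are given as a description.

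The level in each other population can be set beside its content of microglial transcripts. Microglia exceeded the same-numbered BMDM library in 22 of 24 pairs and the monocyte and granulocyte libraries in 23 of 23 pairs each. The median Cxcl13 level was 10.3% of the microglial one in BMDM, 1.53% in granulocytes and 0.532% in monocytes. For P2ry12 the medians were 13%, 9.16% and 4.91%. Cxcl13 stood at a higher share than P2ry12 in 11 of 24 BMDM, 5 of 23 granulocyte and 1 of 23 monocyte libraries. The part that microglial RNA in the other sorts has in their Cxcl13 counts was not tested.

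**Figure D3:**
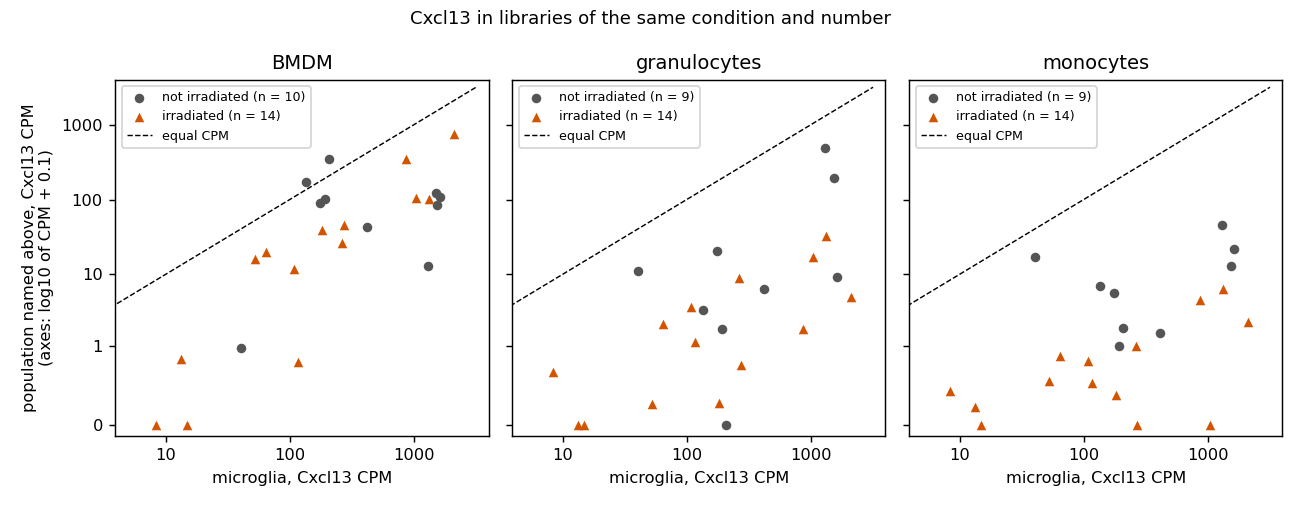
Cxcl13 in BMDM, granulocytes and monocytes (vertical) against microglia of the same condition and number (horizontal), in CPM on axes of log10(CPM + 0.1), with a dashed line at equal levels. Irradiated pairs (triangles, 14 per panel) of BMDM rise along the diagonal, and all but 2 BMDM points and every other point lie under the line.

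Within the other populations, no contrast of stage or radiotherapy passed edgeR's test in the main fits, which leave out genes of low counts. In BMDM, large against small stage gave -0.12 ± 1.45 (log2, SE, adjusted p = 0.997), and radiotherapy gave -1.10 ± 1.45 at 5x2 Gy D3, 0.30 ± 1.48 at 1x10 Gy D3, 0.89 ± 1.31 at 5x2 Gy D5 and -2.51 ± 1.81 at 5x2 Gy D10. The shares of all genes called in these 5 comparisons were 0% in 4 of them and 0.0063% at 1x10 Gy D3. In monocytes the stage difference was -1.35 ± 1.23 and the radiotherapy differences ran from -2.70 ± 1.32 at 5x2 Gy D3 to -4.20 ± 1.44 at 5x2 Gy D5 (adjusted p = 0.303), with 0% of genes called in all 5. Single libraries moved these values, to -6.72 at 5x2 Gy D3 without number 2, -6.97 at 5x2 Gy D5 without number 4 and -5.72 at 1x10 Gy D3 without number 3. The stage difference was -2.42 without large-stage library 1 and -0.51 without small-stage library 3. DESeq2 called the D5 difference in monocytes (-4.28, adjusted p = 0.0222), and limma voom called 1x10 Gy D3 (-4.13, adjusted p = 0.0290).

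Granulocytes showed the widest stage difference, -4.67 ± 1.45 for large against small (adjusted p = 0.157, 0.0141% of genes called). It was called by DESeq2 (adjusted p = 0.0161) and with RLE scaling in edgeR (adjusted p = 0.0198), while limma voom gave -1.12 (adjusted p = 1.00). Without small-stage library 4 it was -5.08 and passed (adjusted p = 0.0350). It rests on a small-stage group whose 4 libraries ran from 0 to 490 CPM and so overlapped the large stage. Radiotherapy differences in granulocytes ran from -1.65 ± 1.29 to -5.97 ± 1.94 with 0% of genes called, and the latter, at 1x10 Gy D3, was -8.60 without number 3. The 5x2 Gy D5 value of -4.78 was -6.97 without number 4. Without a filter on low counts, edgeR called the stage difference and those of 1x10 Gy D3, 5x2 Gy D5 and 5x2 Gy D10. DESeq2 called those of 1x10 Gy D3 and 5x2 Gy D5. Over the 24 tests within populations edgeR called 0 in the main fits, with 5 at an unadjusted p under 0.05, DESeq2 called 4 and limma voom 1. Stage and radiotherapy effects did not differ detectably between BMDM and microglia, with 0 of 5 interaction terms passing in edgeR, 0 of them at an unadjusted p under 0.05 and 0 passing in DESeq2 or limma voom. The interaction terms ran from -1.04 ± 1.85 at 5x2 Gy D3 to 1.13 ± 2.06 at 1x10 Gy D3, where 0.00516% and 0% of genes were called.

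Comparisons across populations that leave out microglia gave differences past the threshold. Unirradiated BMDM were 5.90 ± 1.38 (log2, SE) above tumour-free blood monocytes (adjusted p = 0.0106), where 32.8% of all genes were called. Without the 3 blood libraries and the others of doubtful quality, the adjusted p was 0.154, in a fit whose lone blood library is assumed to vary like the other groups. BMDM were 3.06 ± 0.79 above inflammatory monocytes (adjusted p = 0.0125, 13.8% of genes called), and the call held without any single library. With condition and number as a block its adjusted p was 0.178. Granulocytes were 2.42 ± 0.89 above monocytes (adjusted p = 0.0274, 49.9% of genes called). That call was lost without small-stage granulocyte library 1 (adjusted p = 0.0501), 3 (0.0723) or large-stage library 2 (0.0586), and in limma voom (adjusted p = 0.489). With condition and number as a block the difference was 1.53 (adjusted p = 0.189) and without the libraries of doubtful quality 2.25 (adjusted p = 0.0501), neither called. It was also lost without small-stage monocyte library 1 (0.0549) or 4 (0.0549). Monocytes of the tumours were 2.53 ± 1.21 above blood monocytes and did not pass (adjusted p = 0.134, 26.3% of genes called), but passed without small-stage monocyte library 4 (adjusted p = 0.0424).

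**Figure D4:**
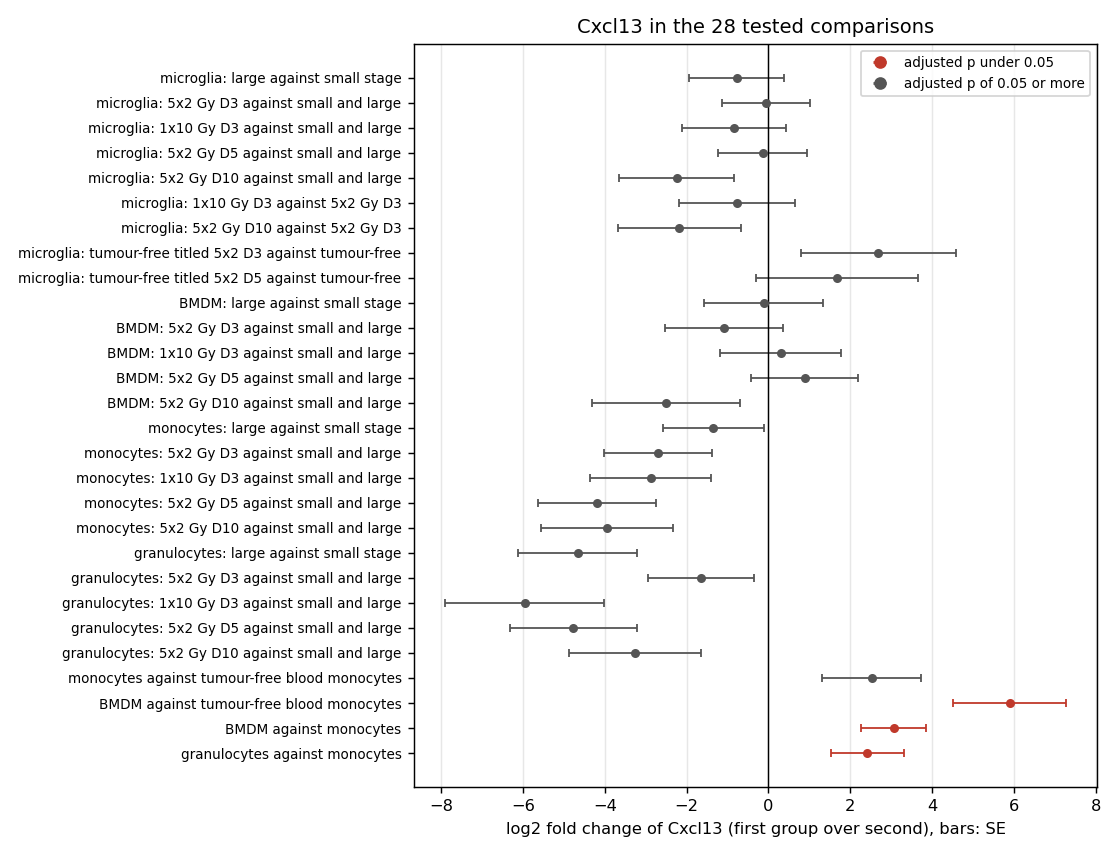
Log2 fold change of Cxcl13 (point) with its SE (bar) in 28 tested comparisons, those with an adjusted p under 0.05 in red. The 3 red points are comparisons between populations, and every comparison within a population is grey.

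Among the CXC chemokines, the family of Cxcl13, levels can be compared per length of exon. In tumour-free microglia Cxcl13 was number 9 of 15 by median, at 0.248 CPM per kb, where Cxcl16, a transmembrane chemokine that binds CXCR6, led with 26.5 CPM per kb. In small-stage microglia Cxcl13 was number 1 with a median of 1130 CPM per kb and a range of 35.6 to 1331, and Cxcl16 followed at 123 with a range of 95.0 to 134. In large-stage microglia Cxcl13 was again number 1, at 168 CPM per kb, but Cxcl16 at 113 had a narrow range of 108.1 to 133 that the lowest Cxcl13 library, at 117, fell into. The neutrophil attractant Cxcl2 and the interferon-induced Cxcl10 came after it, at 43.6 and 31.2 CPM per kb in the small stage.

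**Figure D5:**
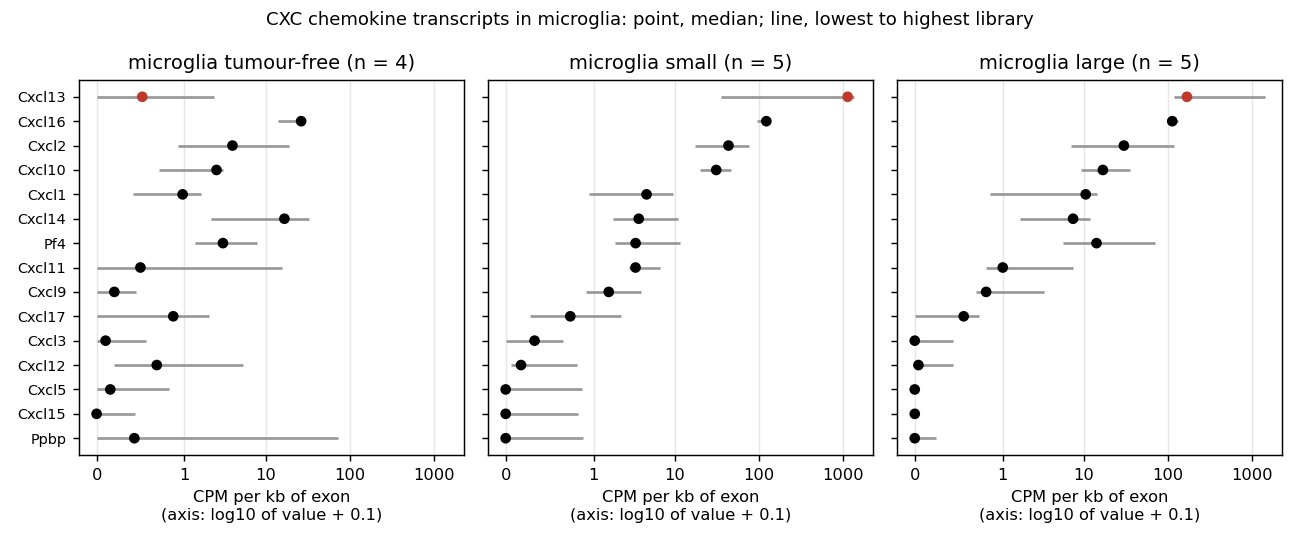
The 15 CXC chemokines in tumour-free, small-stage and large-stage microglia, in CPM per kb of exon on an axis of log10(value + 0.1), with the median as a point, the lowest to highest library as a line and Cxcl13 in red. Cxcl13 moves from 0.248 to 1130 and 168 CPM per kb, and its line is long where that of Cxcl16 is short.

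The same contrast of tumour and tumour-free microglia, which chose Cxcl13, is given for related genes as a description. In it 7.55% of all 19754 genes were called higher and 7.82% lower at the small stage, and 11.7% and 20.2% at the large stage. Of 13 other CXC chemokines tested, 5 were called higher and 1 lower at the small stage and 6 and 2 at the large stage. Cxcl10 was 3.97 ± 0.51 and 3.41 ± 0.50 (log2, SE) higher, Cxcl2 3.45 ± 0.69 and 3.52 ± 0.69, Cxcl16 2.60 ± 0.22 and 2.66 ± 0.22, and Cxcl9, an interferon-gamma target, 4.50 ± 1.17 and 3.86 ± 1.14. Ppbp, a platelet chemokine, was lower at both stages, with -6.68 ± 2.07 and -8.39 ± 2.26. Its tumour-free level rests on 1 of 4 untitled libraries, at 72.15 CPM per kb, where the median was 0.180 and the lowest 0. The median log2 difference of the list was 0.96 and 1.28, beside -0.03 and -0.26 over all genes tested.

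Cxcr5, the receptor of CXCL13, was low in microglia. It was at 0 to 3.30 CPM in untitled tumour-free microglia, 0.588 to 2.45 CPM at the small stage and 0.533 to 1.82 CPM at the large stage, with overlapping groups and log2 differences of -0.38 ± 0.69 and -0.38 ± 0.69. BMDM of the small stage gave 4.90 to 21.5 CPM, and monocytes of that stage 0 to 0.936 CPM. At the large stage BMDM gave 1.76 to 17.8 CPM and monocytes 0 to 0.8715 CPM. Granulocytes gave 0 to 11.6 CPM at the small stage and 0.958 to 14.1 CPM at the large stage. BMDM were 4.91 ± 0.85 (log2, SE) above monocytes in Cxcr5 (adjusted p = 0.000663). In that comparison 7.22% of 14939 genes were called higher and 6.59% lower. All 8 dendritic cell markers were called higher in BMDM, among them Ccr7, the receptor that guides dendritic cells to lymph nodes (5.03 ± 0.84), and 3 of 6 B cell markers, and so were 7 of 10 microglia markers. The part of such cells in the BMDM level of Cxcr5 and Cxcl13 was not tested.

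Of the cytokines known to switch Cxcl13 on in lymphoid organs, Tnf was abundant in microglia and lymphotoxin was not. Tnf was at 22.3 to 132 CPM in untitled tumour-free microglia, 467 to 1391 CPM at the small stage and 331 to 1162 CPM at the large stage, without overlap, and 3.46 ± 0.43 and 3.21 ± 0.42 higher on the log2 scale. Lta, lymphotoxin alpha, was at 2.31 CPM or less in these 3 groups. Ltb, lymphotoxin beta, was at 1.04 to 13.2 CPM in them and at 11.4 to 77.9 CPM in unirradiated BMDM. Over the list of these cytokines, 1 of 6 tested was called higher at the small stage (Tnf) and 2 of 6 at the large stage (Tnf and Tnfsf14), with none lower, and 1 at the large stage with RLE in place of TMM scaling. The median log2 difference of this list was 1.08 and 0.36. Over all genes, 7.55% were called higher at the small stage and 11.7% at the large stage.

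Of their receptors, 1 of 8 was called higher and 1 lower at both stages. The shares of all genes were 7.55% higher and 7.82% lower at the small stage, and 11.7% and 20.2% at the large stage. Cd40, a costimulatory receptor of macrophages and B cells, was higher (5.94 ± 0.94 and 4.80 ± 0.91) and Tnfrsf17, a plasma cell receptor, lower (-2.73 ± 0.66 and -2.84 ± 0.66). Ltbr, the lymphotoxin beta receptor, was at 112 to 134 CPM in tumour-free and 81.3 to 143 CPM in unirradiated tumour microglia, with log2 differences of -0.02 ± 0.18 and 0.24 ± 0.18. The list's medians were 0.26 and 0.19.

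Of 11 genes of NF-kB signalling, 6 were called higher and none lower at each stage, with medians of 0.73 and 0.75. Of all genes, 7.55% and 11.7% were called higher. Nfkb2, the precursor of p52, was 2.31 ± 0.35 and 2.18 ± 0.35 higher, Relb 1.23 ± 0.30 and 1.11 ± 0.30, and Map3k14 0.34 ± 0.43 and 0.24 ± 0.43, the last not past the threshold. With RLE scaling, under which the median of all genes went from -0.03 to -0.21 and from -0.26 to -0.51, the counts were 4 and 3. With group means removed, the Spearman correlation of Nfkb2 and Relb with Cxcl13 was low, 0.13 and 0.12 over the 24 tumour microglia libraries. Nfkb2 ran from 55.5 to 158 CPM and Relb from 50.6 to 104 CPM there. Transcript levels do not measure the activity of the pathway, and its part in the level of Cxcl13 was not tested. Of the other lymphoid tissue chemokines, Ccl19 was at 0.972 CPM or less and Ccl21a at 0.527 CPM or less in the same groups. Cxcr4, the receptor of CXCL12, was 2.72 ± 0.71 and 3.63 ± 0.73 higher.

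B cell and stromal markers were low in the microglia libraries, while those of border macrophages were called higher in part. The summed level of 8 B cell markers was 12.98 to 24.1 CPM in untitled tumour-free, 9.12 to 33.99 CPM in small-stage and 5.66 to 30.2 CPM in large-stage microglia, where Pax5 and Blk were at 0 in all 5 libraries. None of 5 tested was called in either direction at either stage, where 15.4% (small) and 31.9% (large) of all genes were. The sum of 8 stromal and follicular dendritic cell markers was 25.9 to 47.4, 10.3 to 29.7 and 3.36 to 28.1 CPM in the same 3 groups, and Cr2, which marks follicular dendritic cells and B cells, was at 0 to 4.08 CPM at the small stage. Over the 24 tumour libraries the Spearman correlation of Cxcl13 was 0.34 with the B cell sum and -0.30 with the stromal sum.

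Of the myeloid cells that can make CXCL13, dendritic cells had a marker sum (8 genes) of 112 to 356 CPM in untitled tumour-free, 80.5 to 282 CPM in small-stage and 50.9 to 234 CPM in large-stage microglia, and 1 of 7 tested was called lower at each stage. The sum of 9 markers of border macrophages, which line the vessels and membranes of the brain, was 38.4 to 172.5 CPM in tumour-free, 53.8 to 473.5 CPM in small-stage and 222 to 834 CPM in large-stage microglia, with medians of 47.4, 162.5 and 239.5 CPM. At the small stage 2 of 9 were called higher and at the large stage 6 of 9 (5 with RLE scaling), among them Siglec1, a sialic acid receptor (4.19 ± 0.67 and 4.07 ± 0.67), and the folate receptor Folr2 (2.88 ± 0.88 and 4.48 ± 0.92). Cd163 and Lyve1, other markers of these cells, were at 1.26 CPM or less and 1.49 CPM or less in both stages. Of all genes, 7.55% were called higher and 7.82% lower at the small stage, and 11.7% and 20.2% at the large stage. The sum of 8 monocyte-derived cell markers was 15.3 to 274, 38.0 to 357 and 48.5 to 1688 CPM in the same 3 groups, with medians of 83.5, 224.5 and 191 CPM, and 1 of 7 tested was called, Fn1, higher at the large stage (5.01 ± 1.41). Within groups over the 24 tumour libraries, the Spearman correlation of Cxcl13 was -0.15 with the dendritic cell sum, 0.03 with the border macrophage sum and -0.0026 with the monocyte-derived sum. The part of such cells in the microglial level of Cxcl13 was not tested.

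The sum of 9 markers of astrocytes, neurons and oligodendrocytes was 1312 to 2175 CPM in the untitled tumour-free libraries, 177 to 375 CPM at the small stage and 226 to 394 CPM at the large stage, and 5 and 6 of 9 were called lower. Their Spearman correlation with Cxcl13 within groups was -0.45, and their part in the results was not tested. Of all genes, 7.82% were called lower at the small stage and 20.2% at the large stage.

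Which genes varied most like Cxcl13 was read over 8596 genes of at least 10 CPM on average in tumour microglia. Within groups over the 24 libraries, the 8 highest Spearman correlations ran from 0.78 for Ctdnep1, a nuclear envelope phosphatase, to 0.72 for Acot9, an acyl-CoA thioesterase. Between them came the proteasome subunit Psmb7, the Toll-like receptor homologue Cd180, the mitochondrial genes Mrpl46 and Ndufa9, the ubiquitin-like modifier Ufm1 and the membrane insertion factor Emc4. These names were not stable, since 0 of 8 recurred among the top 8 in the 10 unirradiated libraries alone and 2 of 8 in the 14 irradiated ones. Activation genes had lower values, with Spearman correlations of 0.56 for the cystatin Cst7, 0.50 for Cxcl10, 0.35 for Tnf and 0.32 for Il1b.

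Across the 28 group means, over 12859 genes, the highest Pearson r values were 0.90 for Herpud1, a gene of endoplasmic reticulum stress, and 0.90 for Cst7. Next came Kif2c, a mitotic kinesin (0.85), Ch25h, cholesterol 25-hydroxylase (0.84), Apob, apolipoprotein B (0.84), Cdk18 (0.83), Ifnb1, interferon beta (0.83), and Lpl, lipoprotein lipase (0.82). Ch25h was at a mean of 97.6 CPM in tumour and 1.28 CPM in tumour-free microglia, and Cst7 at 469 and 9.96 CPM. These correlations describe groups that share libraries, depth and the contrast by which Cxcl13 was chosen.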

How the data were processed

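Raw counts per gene were deposited by the authors in 1 table of whole numbers, 49585 genes as rows with libraries as columns, and were used as deposited, with 0 columns left unmapped. Per the labels' protocols, libraries came from total RNA of flow-sorted cells. TopHat2 2.0.14, HTSeq, FastQC, DESeq2 1.18.1 and the build GRCm38 stand in the submitters' processing notes without roles. Strand of counting and annotation release are not given in the sources used.

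Samples were grouped by title and fields. The gene, the lists and the rule for named genes were chosen with earlier results of these data known. That rule names Cxcl13, list members with their values, and the 8 genes most correlated with Cxcl13 within groups and over group means, above 10 CPM. Further outcomes (spread, genes beside Cxcl13, same-numbered libraries) were chosen after values were seen.

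Levels are plain CPM. Fits used edgeR 4.0.16 in R 4.3.3 (filterByExpr with a minimum count of 10, TMM, quasi-likelihood test, 1 mean per group), adjusted by Benjamini-Hochberg over all genes tested, with a threshold of 0.05. All libraries of a population were fitted together. Each SE of an edgeR fit was back-calculated as the absolute log2 fold change over the square root of the F statistic. It is approximate, most of all for folds against groups near 0 counts. Alternatives were RLE scaling, no filter, limma voom 3.58.1 with quality weights, DESeq2 1.42.0, replicate blocks, only the groups compared, other references, and libraries left out. A library was doubtful under 3000000 counts, over 30000 genes detected or with over 1% of abundant genes (100 CPM or more) at 0 counts. Correlations used log2(CPM + 1). Promoter windows are from RefSeq on GRCm38.p6. The fits were tested on simulated data. Floors cover counting error only. Figures were drawn with matplotlib 3.10.9.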

Additional observations from a re-analysis of the deposited data

Results flagged for a closer look

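In 18 groups of 4 or 5 libraries, 8 had a highest library whose gap to the next, as a share of the group's range, was above Dixon's 95% critical value. Chance gives such a gap in about 1 of 20 groups of normally distributed values. The rate for values as skewed as these CPM was not measured. In microglia these were untitled tumour-free number 1 at 2.69 CPM of Cxcl13, large-stage number 1 at 1627 CPM and 5x2 Gy D5 number 4 at 2116 CPM. At 5x2 Gy D5, number 4 was also the far library of BMDM at 761 CPM, of monocytes at 2.25 CPM and of granulocytes at 4.88 CPM. The others were large-stage monocytes number 1 at 21.8 CPM and 5x2 Gy D3 monocytes number 2 at 6.27 CPM. The cause was not tested.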

How the results depend on the processing

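Log2 fold changes of Cxcl13 follow. In 282 refits that left out no library singly, 252 kept direction and side of the threshold, 13 gained a call and 5 lost one. The other 12 changed direction, none of them past the threshold. Contrasts given without a test are among the refits, and for these a kept direction and a shift below the SE counted as kept. With the replicate number of the titles as a block, direction changed for 5x2 Gy D3 microglia (1.01) and, in BMDM, for large against small stage (1.09) and 5x2 Gy D5 (-1.03). Same-numbered libraries deviated together (every correlation over 0.1) in 1 of 60 pairs of conditions and in 0 of 12 unirradiated pairs of populations, so numbers were not taken to pair samples. They did in 12 of 36 pairs of populations in all, each of irradiated libraries, among them every pair at 5x2 Gy D10. The main fits take no account of such pairing. With condition and number as a block, a choice made after seeing the data, BMDM (2.43) and granulocytes (1.53) lost their calls against monocytes, and the interactions of 5x2 Gy D5 (-0.10) and D10 (0.10) changed direction.

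With the large stage alone as reference, direction changed at 5x2 Gy D3 (0.33) and D5 (0.25) in microglia and at D3 in granulocytes (0.68), and with the small stage alone for the D10 interaction (0.067). Without doubtful libraries, 5x2 Gy D3 microglia stood at 0.26, BMDM against blood monocytes at 9.24 and granulocytes against monocytes at 2.25, the last 2 not called. With limma voom, BMDM gave 0.10 (large against small) and -2.83 (5x2 Gy D5), granulocytes against monocytes lost its call (0.74), and 1x10 Gy D3 monocytes (-4.13) and monocytes against blood (5.26) gained one. Without a filter on low counts, calls were gained for 5x2 Gy D5 monocytes (-4.18), granulocytes of the large stage (-4.53), 1x10 Gy D3 (-5.94), 5x2 Gy D5 (-4.74) and D10 (-3.17), and monocytes against blood (2.76). DESeq2 gained 5x2 Gy D5 monocytes (-4.28) and granulocytes of the large stage (-5.91), 1x10 Gy D3 (-6.62) and 5x2 Gy D5 (-5.46). RLE scaling gained the large stage of granulocytes (-5.91). The causes were not tested.

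With each library left out in turn, 468 of 498 fits kept direction and call or, for contrasts without a test, kept direction with a shift below the SE. Values ran from -0.82 to 0.51 for 5x2 Gy D3 and from -2.83 to 0.43 for D5 in microglia, and from -0.17 to 4.10 for titled 5x2 D3. The described 5x2 Gy differences from titled 5x2 microglia ran from 6.39 to 10.02 at D3 and from 5.38 to 8.49 at D5. In BMDM they ran from -0.44 to 0.98 (large against small), -1.96 to 0.85 (1x10 Gy D3) and -2.78 to 1.44 (5x2 Gy D5). Large against small granulocytes ran from -5.34 to -3.95, monocytes against blood from 1.98 to 3.78 and granulocytes against monocytes from 1.97 to 2.94. Interactions ran from -1.18 to 2.73 (1x10 Gy D3), -2.63 to 3.69 (5x2 Gy D5) and -0.86 to 0.51 (D10). Counts near 0 in tumour-free microglia, blood and monocytes limit the precision of folds against them.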
